A study of Mus musculus with 125 samples.

Results

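Genes whose products load histones onto DNA were described in mouse embryos sequenced one by one at the 2-cell stage: H1foo, the linker histone of the oocyte (H1f8 in RefSeq), and 9 histone chaperones or chaperone subunits. They are 10 of the 43421 genes in the deposited count table and were chosen by name and role, with earlier results of these data known. H1foo and Npm2 are of the oocyte type, Chaf1a, Chaf1b, Asf1b and Nasp act in replication, and Hira, Ubn1 and Daxx place the replacement histone H3.3. Asf1a serves both routes. Each member matched 1 Ensembl gene, and all 10 passed the filter on low counts in every comparison. Of the 121 embryos, 121 had at least 1 count of each member except Daxx, which had a count in 119.

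The study compared embryos from zygotes with 1 pronucleus (1PN), in which both parental genomes may share a nucleus, with embryos from zygotes with 2 pronuclei (2PN). Zygotes were picked 10 h after fertilization, their second polar body was taken off, and the embryos were lysed at 34 h. Crosses are named in the order of the labels, which do not say which strain was the mother. The cross C57BL/6 x JF1/Ms (here BxJ) gave 43 2PN embryos and 11 1PN embryos. A further 8 BxJ embryos scored as 1PN were classed by the submitters in silico as parthenogenetic, that is, without a paternal genome, and these are written 1PN-P. How that class was assigned is not stated in the labels. The cross JF1/Ms x C57BL/6 (JxB) gave 21 2PN, 3 1PN and 4 1PN-P embryos, and 31 parthenotes were of C57BL/6 alone. Those 31 differ from 2PN and 1PN BxJ embryos in strain as well as in parentage. Whether they differ in strain from 1PN-P BxJ embryos depends on the mother's strain, which is not stated. The labels do not say how the parthenotes were activated. No genotype, drug or other agent separates the groups in the labels. No label says which embryos share parents or a day, so the p-values speak only to the spread among the embryos at hand, which may be partly technical.

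In the oocyte and the fertilized egg, DNA is packed with stored, maternally made proteins. The linker histone H1foo binds between nucleosomes and gives way to somatic linker histones as development proceeds, and Npm2 (nucleoplasmin) stores histones and helps to remodel sperm chromatin. In S phase Asf1 and Nasp carry new H3-H4 to the CAF-1 complex, whose large subunits are Chaf1a and Chaf1b, at the replication fork. Outside S phase Hira, with Ubn1, and Daxx deposit H3.3. At the 2-cell stage maternal transcripts are cleared while the embryonic genome is switched on, so a transcript level here mixes stored and new RNA.

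Depth, as the total estimated count of a library, ran from 533276 to 4887274 with a median of 3392406. Of the 11 kept libraries under 2000000 counts, 7 were 2PN JxB, 2 were 1PN-P JxB, 1 was 2PN BxJ and 1 was a parthenote. Levels are in CPM, the count of a gene scaled to a common library total, and thus a share of a library, so more RNA of 1 gene and less RNA of all others cannot be told apart. In oocyte markers 3 libraries stood apart. The 11 oocyte markers summed to 11630 CPM in 1PN-P BxJ embryo 10, and to 10240 and 13600 CPM in 1PN-P JxB embryos 1 and 2, against a range of 455 to 6683 CPM in the other kept embryos. The 8 measured 2-cell markers, such as the Zscan4 genes, summed to only 14.2 and 179.7 CPM in those 2 JxB embryos, below the lowest value of any other embryo, 340.8 CPM. Those 2 embryos are thus unlike the others in these markers, and their stage was not tested. In 1PN-P BxJ embryo 10 the 2-cell markers summed to 1940 CPM. Calls that change without these embryos are given both ways; leaving out the BxJ embryo was chosen after seeing the data. Markers of cumulus cells summed to at most 91.4 CPM and of sperm to at most 23.8 CPM in any embryo. Cumulus marker sums had medians of 7.71 CPM in 2PN BxJ, 27.9 CPM in 1PN-P BxJ and 31.5 CPM in parthenotes. Of the 11 cumulus markers 2 were at 0 in all embryos of each of these groups. Tnfaip6 alone had medians of 3.83, 22.9 and 24.3 CPM in the same order. No other cumulus marker had a median above 3.073 CPM in these groups. The part of the cumulus markers in the results was not tested.

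Sequence just upstream of the start sites differed in CpG content between members, and 4 examples are shown as a low, a middle and 2 high cases among members called in 1PN-P embryos. Each run is the 250 bases before 1 RefSeq start site in GRCm38.p6, 5' to 3' on the gene's strand, with every CpG in capitals. H1foo lies at chr6:115944681-115944930 on the plus strand, Asf1a at chr10:53596711-53596960 (plus), Asf1b at chr8:83955444-83955693 (plus) and Nasp at chr4:116627952-116628201 (minus). Unlike the other runs shown, the Nasp run lies inside the span of its gene (116601052 to 116628676), so it precedes an inner start site.
H1foo: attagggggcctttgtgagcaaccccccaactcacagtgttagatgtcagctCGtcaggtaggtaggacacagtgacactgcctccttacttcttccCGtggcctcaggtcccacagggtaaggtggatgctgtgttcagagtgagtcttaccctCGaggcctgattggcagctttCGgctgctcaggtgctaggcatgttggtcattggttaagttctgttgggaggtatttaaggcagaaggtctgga
Asf1a: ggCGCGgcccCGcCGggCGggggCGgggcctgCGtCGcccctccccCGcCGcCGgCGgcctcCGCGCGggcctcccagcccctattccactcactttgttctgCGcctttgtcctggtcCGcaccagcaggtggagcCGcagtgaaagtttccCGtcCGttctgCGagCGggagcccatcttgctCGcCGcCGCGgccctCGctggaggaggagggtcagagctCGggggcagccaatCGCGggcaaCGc
Asf1b: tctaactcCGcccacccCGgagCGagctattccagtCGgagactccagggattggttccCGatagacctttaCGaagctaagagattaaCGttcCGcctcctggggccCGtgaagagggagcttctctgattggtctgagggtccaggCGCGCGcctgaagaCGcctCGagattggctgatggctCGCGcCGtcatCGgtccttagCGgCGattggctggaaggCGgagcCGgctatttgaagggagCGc
Nasp: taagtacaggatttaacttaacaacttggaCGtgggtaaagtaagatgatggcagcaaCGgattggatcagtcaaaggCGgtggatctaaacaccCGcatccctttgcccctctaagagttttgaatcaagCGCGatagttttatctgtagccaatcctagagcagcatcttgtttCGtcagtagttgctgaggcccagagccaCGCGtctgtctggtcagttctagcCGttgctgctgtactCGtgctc
These stretches held 4 CpGs for H1foo, 31 for Asf1a, 23 for Asf1b and 11 for Nasp. Chaf1b had 21, Chaf1a 28, Hira 29, Ubn1 31 and Daxx between 25 and 30 at its 3 start sites. The median over all 32851 RefSeq windows was 6, and 44.4% of windows had 4 or fewer, and H1foo had the fewest of the 9 members with a window. No window of 300 bases (250 before to 50 after the start) of any member held the NOBOX element TAATTG or the E2F sites TTTCCCGC, TTTGGCGC, TTTCGCGC or TTTGCCGC on either strand, which 8.0% and 2.26% of all windows held. The E-box CANNTG, in 72.3% of all windows, was found in H1foo, Chaf1a, Asf1a, Hira, Ubn1 and Daxx and not in Chaf1b, Asf1b or Nasp. A match or its lack describes these letters only.

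**Figure D1:**
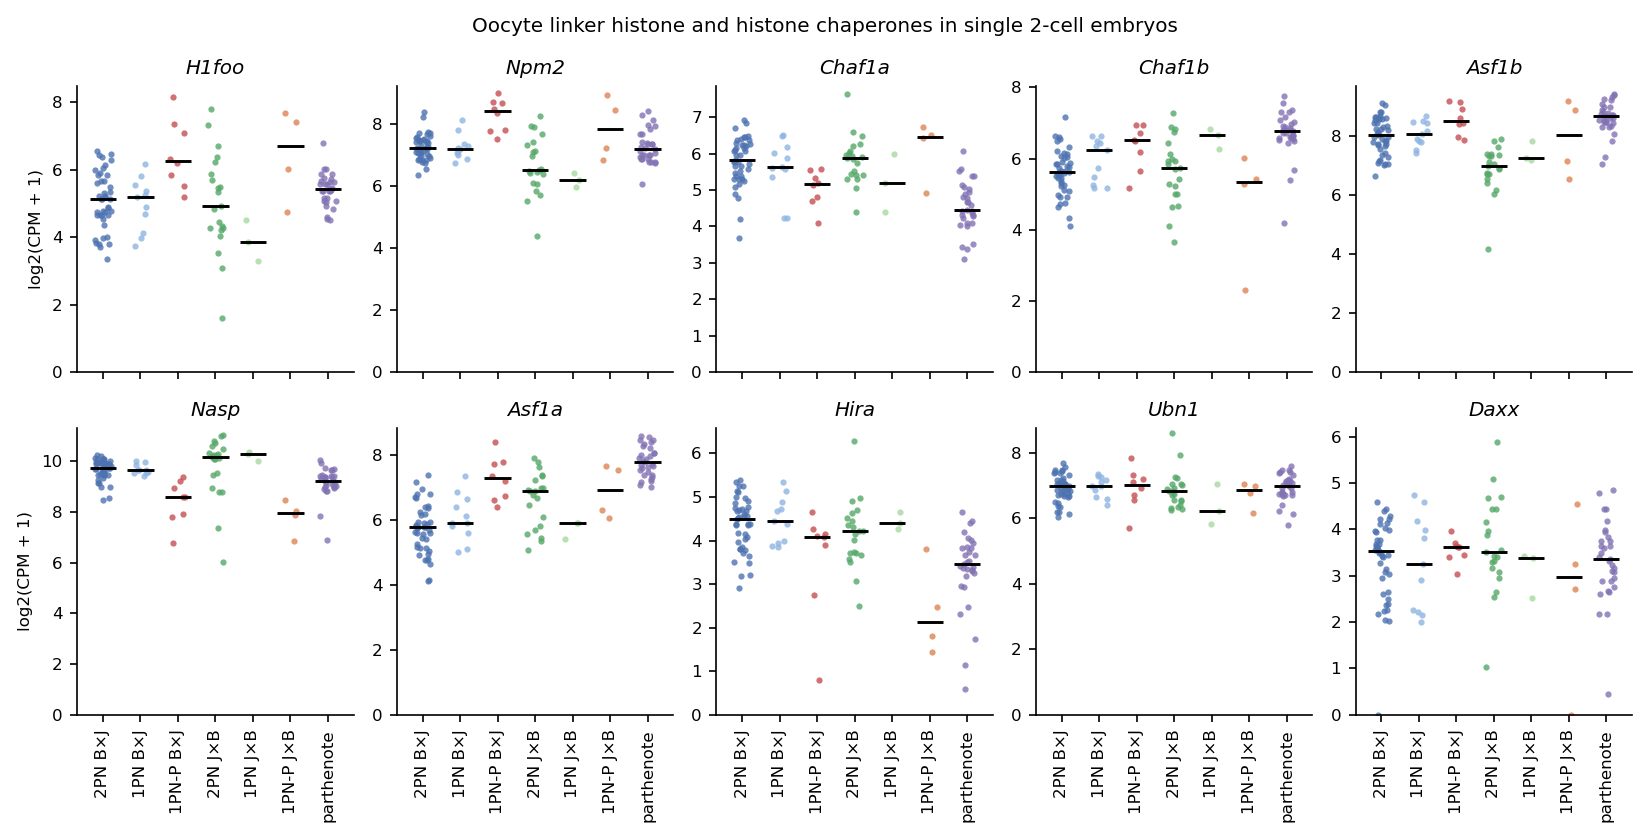
Level of each member in every kept embryo, as log2(CPM + 1) on a linear axis from 0, by group. B×J and J×B are the 2 crosses, 1PN-P are 1PN embryos called parthenogenetic, each point is 1 embryo and bars are medians. Nasp is lower and Npm2 higher in both 1PN-P groups than in 2PN embryos of the same cross, and Asf1a is highest in parthenotes.

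Across both crosses, 1PN embryos could not be told from 2PN embryos by any member. Of the 10 members 0 were called, against 0.263% of the 22785 genes tested. No member had an unadjusted p under 0.05, and DESeq2 and limma voom also called 0. The widest gap was for H1foo, at -0.47 ± 0.33 on the log2 scale (SE; edgeR, adjusted p = 1), and the narrowest error was for Ubn1, at -0.10 ± 0.15. Within BxJ, 0 of 10 were called (0.607% of all genes) and 0 had an unadjusted p under 0.05. Within JxB, with 3 1PN embryos, 0 of 10 were called (0.0369% of all genes) and 2 had an unadjusted p under 0.05, H1foo at -1.73 ± 0.65 and Asf1a at -1.05 ± 0.48. H1foo stood at 8.75, 13.4 and 22.03 CPM in those 3 embryos, all below the 2PN JxB median of 29.2 CPM and inside its range of 2.08 to 220.02 CPM. DESeq2 called this H1foo difference (-1.87, adjusted p = 0.0324). These values do not show that 1PN and 2PN embryos are alike, only that no member passed at this spread. Without 1PN BxJ embryo 9 the genes called over both crosses went from 60 to 4, and within BxJ from 148 to 41, with 0 members in each case.

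The 1PN-P embryos differed from 2PN embryos in most members. In the fit over both crosses, H1foo, Npm2, Asf1a and Asf1b rose and Nasp and Hira fell, while Chaf1a, Chaf1b, Ubn1 and Daxx did not pass. The 4 of 10 higher compare with 18.3% of all genes tested and the 2 of 10 lower with 15.8%. Over the members the median log2 fold change was 0.02, and over all genes it was 0.19, so a gene at 0 here sits slightly below the middle of all genes. Without the 3 embryos that stood apart, 2 members were higher (Npm2, Asf1a) and 3 lower (Nasp, Hira, Chaf1a). Of all 24379 genes tested in that fit, 2226 were higher and 2425 lower.

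The oocyte-type members were H1foo, which lies on chromosome 6 from 115944931 to 115950242 (GRCm38), and Npm2, on chromosome 14 from 70647296 to 70661802. In BxJ, H1foo ran from 9.31 to 92.7 CPM with a median of 34.2 CPM in 43 2PN embryos and from 35.96 to 284.3 CPM with a median of 76.3 CPM in 8 1PN-P embryos. All 8 lay above the 2PN median and 3 above the 2PN range, and the groups overlapped. In JxB, H1foo was at 169.6, 206.5, 64.0 and 25.9 CPM in 1PN-P embryos 1, 2, 3 and 7, of which 3 exceeded the 2PN JxB median and none its highest value. Over both crosses the log2 fold change of H1foo was 1.30 ± 0.30 (SE; edgeR, adjusted p = 0.000394, above the 2PN median of its cross in 11 of 12 embryos). It was 1.30 ± 0.32 within BxJ (adjusted p = 0.00146) and 1.08 ± 0.46 within JxB (adjusted p = 0.0580). The JxB value passed under several alternatives, among them DESeq2 (1.43, adjusted p = 0.0126) and the fit without libraries under 2000000 counts (1.74, adjusted p = 0.00971). That last fit keeps only embryos 1 and 2 of the 1PN-P JxB embryos. Without embryos 1 and 2 the JxB value of H1foo was -0.27 ± 0.70 (adjusted p = 0.848). Leaving out the 3 embryos that stood apart gave 0.63 ± 0.34 over both crosses (adjusted p = 0.197), and leaving out BxJ embryo 10 alone gave 0.86 ± 0.34 within BxJ (adjusted p = 0.0706). H1foo passed over both crosses without BxJ embryo 10 alone (1.02 ± 0.31, adjusted p = 0.00827) and without JxB embryos 1 and 2 alone (1.09 ± 0.33, adjusted p = 0.0108), but not without all 3.

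Npm2, the histone-storing nucleoplasmin, ran from 80.8 to 332.1 CPM (median 149.7 CPM) in 2PN BxJ and from 183.2 to 507.0 CPM (median 340.6 CPM) in 1PN-P BxJ embryos. All 8 exceeded the 2PN median and 4 exceeded every 2PN BxJ embryo. In JxB its values were 490.1, 347.3, 148.2 and 112.7 CPM in 1PN-P embryos 1, 2, 3 and 7, all above the 2PN median of 91.3 CPM, and 2 of them above the 2PN range. Over both crosses Npm2 rose by 1.00 ± 0.18 (SE; edgeR, adjusted p = 1.39e-05, above the 2PN median of its cross in 12 of 12 embryos). Without the 3 embryos it was 0.56 ± 0.20 (adjusted p = 0.0384). Within JxB the rise of 1.09 ± 0.29 (adjusted p = 0.00175) became 0.05 ± 0.42 (adjusted p = 0.987) without embryos 1 and 2.

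Among the replication members Nasp, the carrier of H3-H4 (chromosome 4, 116601052 to 116628676), fell. Nasp ran from 354.6 to 1220.5 CPM (median 860.4 CPM) in 2PN BxJ embryos, from 683.04 to 1023.7 CPM in 1PN and from 108.9 to 676.4 CPM (median 383.4 CPM) in 1PN-P BxJ embryos. The 8 1PN-P embryos were all below the 2PN median and all below the lowest 1PN embryo. How many of all genes separate the 1PN-P and 1PN BxJ embryos in this way was not counted. In JxB it stood at 234.8, 113.9, 265.0 and 360.1 CPM in 1PN-P embryos 1, 2, 3 and 7 against 1043.7, 1264.1 and 1337.3 CPM in the 3 1PN embryos and a median of 1152.2 CPM in 2PN embryos. The 2PN JxB embryos spread from 64.1 to 2133.4 CPM and overlapped the 1PN-P values.

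The log2 fold change of Nasp was -1.58 ± 0.24 against 2PN (SE; edgeR, adjusted p = 4.57e-07) and -1.56 ± 0.28 against 1PN (adjusted p = 2.79e-05), in both cases over both crosses, and 12 of 12 1PN-P embryos were below the 2PN median of their cross. Within BxJ it was -1.37 ± 0.28 (adjusted p = 0.000141; -1.21 ± 0.28 without embryo 10, adjusted p = 0.00124) and within JxB -2.38 ± 0.43 (adjusted p = 5.74e-06). Without the 3 embryos it was -1.35 ± 0.26 (adjusted p = 9.76e-05), and without embryos 1 and 2 the JxB value was -1.92 ± 0.56 (adjusted p = 0.0150). Nasp was the member that passed in each of these comparisons with and without those embryos.

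Chaf1a and Chaf1b encode the large subunits of CAF-1. In BxJ, Chaf1a (chromosome 17, 56040416 to 56068026) had a median of 55.8 CPM in 2PN and 34.9 CPM in 1PN-P embryos, 8 of 8 below the 2PN median and all inside its range. Its log2 fold change there was -0.997 ± 0.28 (SE; edgeR, adjusted p = 0.00545) and -1.04 ± 0.30 without embryo 10 (adjusted p = 0.00985). In JxB, Chaf1a was at 84.4, 104.5, 29.3 and 89.8 CPM in 1PN-P embryos 1, 2, 3 and 7, with 3 of 4 above the 2PN median of 57.5 CPM, and 0.20 ± 0.36 (adjusted p = 0.697). The difference between the crosses in this effect passed its own test at 1.20 ± 0.43 (adjusted p = 0.0432), and was 0.78 ± 0.54 (adjusted p = 0.451) without JxB embryos 1 and 2 and 1.16 (adjusted p = 0.0756) without embryo 7. Over both crosses Chaf1a stood at -0.45 ± 0.23 (adjusted p = 0.116) and, without the 3 embryos, at -0.81 ± 0.26 (adjusted p = 0.0178). Chaf1b (chromosome 16, 93883900 to 93906115) was above the 2PN median in 7 of 8 1PN-P BxJ embryos, with medians of 90.3 and 48.7 CPM. Its 4 1PN-P JxB values were 3.98, 38.1, 41.8 and 63.8 CPM, the lowest in embryo 1 and below every 2PN JxB embryo. The Chaf1b fold change was 0.46 ± 0.27 in BxJ (adjusted p = 0.201) and -0.86 ± 0.43 in JxB (adjusted p = 0.106), and the value over both crosses, 0.21 ± 0.24 (adjusted p = 0.537), averages these. Their difference of -1.33 ± 0.51 did not pass (adjusted p = 0.0557). It did under some alternatives, among them DESeq2 (-1.18, adjusted p = 0.0484) and the fit without libraries under 2000000 counts (-2.23, adjusted p = 0.00387). That last fit keeps only embryos 1 and 2 of the 1PN-P JxB embryos. Without embryos 1 and 2 the Chaf1b difference between crosses was -0.82 ± 0.60 (adjusted p = 0.482).

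Asf1b and Asf1a are the paralogous carriers of H3-H4. Asf1b, the form tied to dividing cells (chromosome 8, 83955694 to 83970195), was at 581.0 and 464.0 CPM in 1PN-P JxB embryos 1 and 2 and at 141.6 and 92.8 CPM in embryos 3 and 7. The 2PN JxB embryos ran from 16.9 to 234.8 CPM, so the first pair lay above them and the second pair among them. Over both crosses the Asf1b difference was 0.71 ± 0.20 (SE; edgeR, adjusted p = 0.00309, above the 2PN median in 9 of 12 embryos), and 0.12 ± 0.21 (adjusted p = 0.726) without the 3 embryos. Within JxB it went from 1.16 ± 0.31 (adjusted p = 0.00172) to -0.23 ± 0.44 (adjusted p = 0.786) without embryos 1 and 2. Within BxJ it was 0.32 ± 0.23 (adjusted p = 0.309).

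Asf1a (chromosome 10, 53596961 to 53609225) ran from 16.4 to 164.1 CPM (median 53.5 CPM) in 2PN BxJ and from 82.4 to 333.3 CPM (median 154.2 CPM) in 1PN-P BxJ embryos. All 8 exceeded the 2PN median and 3 its highest embryo. Its log2 fold change was 1.29 ± 0.25 in BxJ (SE; edgeR, adjusted p = 5.61e-05; 1.38 ± 0.26 without embryo 10) and 1.00 ± 0.24 over both crosses (adjusted p = 0.000608), and it was 1.12 ± 0.26 over both crosses without the 3 embryos (adjusted p = 0.00135). In JxB the 4 values of 185.2, 77.4, 64.9 and 200.01 CPM lay on either side of the 2PN median of 117.4 CPM, and the difference was 0.03 ± 0.39 (adjusted p = 0.989). The difference of the effect between crosses, -1.26 ± 0.50, did not pass (adjusted p = 0.0638).

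All 12265 bases of Asf1a lie inside the span of Mcm9, a replication and repair helicase. The library kit does not mark strand and the labels give no rule for shared reads, so reads of the 2 genes may not be told apart where their exons meet. Mcm9, looked up for this reason after the Asf1a values were seen, had a median of 42.4 CPM in 2PN BxJ, 96.7 CPM in 1PN-P BxJ and 83.3 CPM in parthenotes. It was thus higher than in 2PN BxJ in both groups with higher Asf1a, though lower in parthenotes than in 1PN-P, the reverse of Asf1a. In 2PN JxB, where Asf1a had a median of 117.4 CPM, Mcm9 had 55.5 CPM. Its part in the Asf1a results was not tested. Chaf1a shares 982 bases with Ubxn6, whose medians were 15, 8.25 and 16.5 CPM in the same 3 groups. Npm2 shares 4004 bases with the non-coding gene Gm52133, Hira 2296 with a pseudogene and Ubn1 108 with a small nuclear RNA gene.

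**Figure D2:**
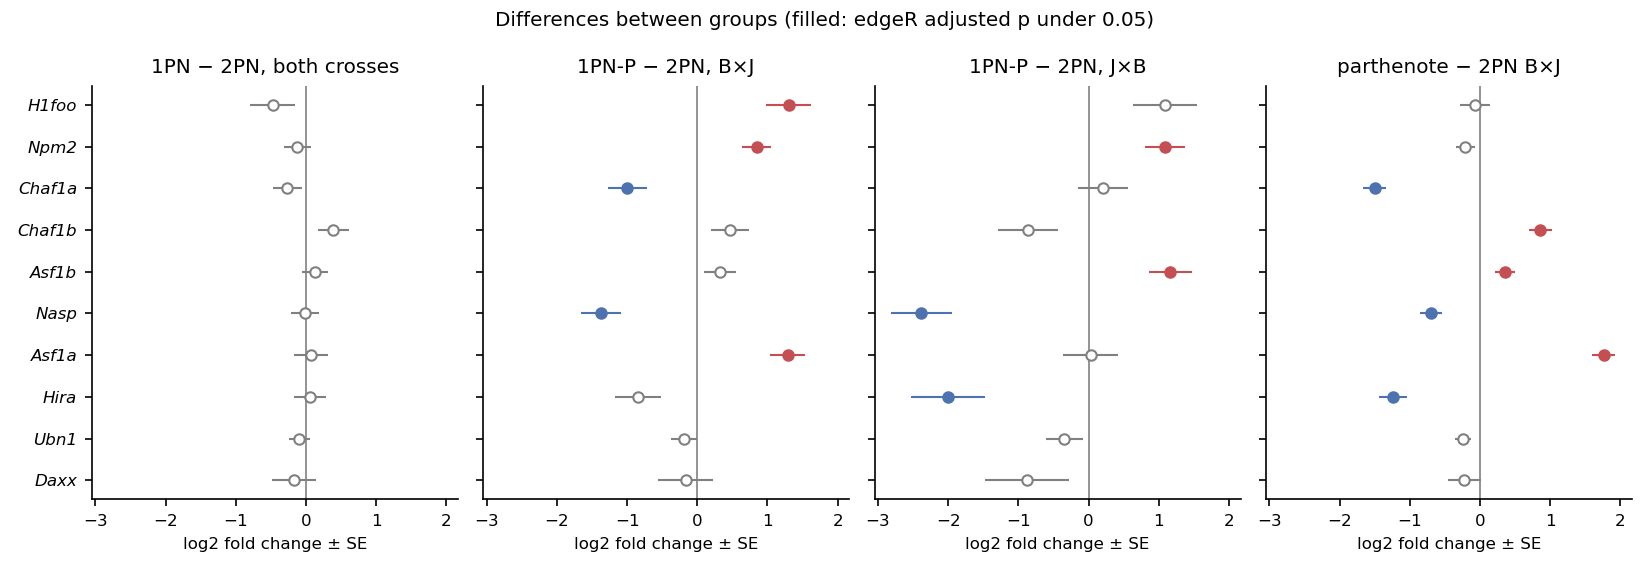
Log2 fold change of each member (point) with its SE (bar) in 4 comparisons, filled in red (higher) or blue (lower) where the edgeR adjusted p was under 0.05 and open otherwise. No member is filled for 1PN against 2PN, Nasp is filled in blue in the other 3 panels, and H1foo and Npm2 lie near 0 in parthenotes.

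Of the replacement members, Hira, the scaffold of the complex that places H3.3 (chromosome 16, 18876750 to 18970309), fell. In 2PN BxJ it ran from 6.503 to 40.7 CPM (median 21.4 CPM) and in 1PN-P BxJ from 0.739 to 24.2 CPM (median 16.01 CPM), with 7 of 8 below the 2PN median. In JxB it was at 4.51, 1.70, 13.1 and 2.49 CPM in 1PN-P embryos 1, 2, 3 and 7, and 3 of these lay below the lowest 2PN JxB embryo at 4.63 CPM. Hira changed by -1.07 ± 0.27 over both crosses (SE; edgeR, adjusted p = 0.00125, below the 2PN median in 11 of 12 embryos) and by -0.77 ± 0.27 without the 3 embryos (adjusted p = 0.0346). It passed within JxB at -2.01 ± 0.53 (adjusted p = 0.00174), but not without embryos 1 and 2 (-1.37 ± 0.69, adjusted p = 0.227), and not within BxJ (-0.84 ± 0.33, adjusted p = 0.0543). The BxJ value passed with limma voom (-1.15, adjusted p = 0.00876) and without libraries under 2000000 counts (-0.84, adjusted p = 0.0320), and stood at -0.64 without embryo 10 (adjusted p = 0.177).

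Ubn1, the Hira partner (chromosome 16, 5050057 to 5086289), passed in none of the comparisons. Its group medians lay between 111.6 and 128.6 CPM in 6 groups and at 73.9 CPM in the 3 1PN JxB embryos. Against 2PN it differed by -0.16 ± 0.16 in 1PN-P embryos (SE; edgeR, adjusted p = 0.453) and by -0.24 ± 0.11 in parthenotes (adjusted p = 0.0765). Daxx (chromosome 17, 33909404 to 33915590), which works with Atrx at repeats, had low counts. Group medians ran from 7.01 to 11.2 CPM, and its 1PN-P difference of -0.30 ± 0.34 did not pass (adjusted p = 0.514). It had no count in 1PN-P JxB embryo 1 and in 1 2PN BxJ embryo, where 3 counts would be 0.796 and 1.77 CPM, which covers counting error only.

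Set against biparental 1PN embryos over both crosses, 3 of 10 members were higher (12.7% of all genes) and 2 of 10 lower (12.7% of all genes). H1foo was higher by 1.77 ± 0.42 (SE; edgeR, adjusted p = 0.00112), Npm2 by 1.12 ± 0.25 (adjusted p = 0.000597) and Asf1a by 0.93 ± 0.32 (adjusted p = 0.0235). Hira stood at -1.13 ± 0.32 (adjusted p = 0.00548). Without the 3 embryos H1foo was at 1.11 ± 0.42 (adjusted p = 0.0638) and Hira at -0.84 ± 0.31 (adjusted p = 0.0567), and Npm2, Asf1a and Nasp passed. Within BxJ, counts of members against 2PN were 3 of 10 higher (12.1% of all genes) and 2 of 10 lower (10.2%). Within JxB they were 2 of 10 higher (11% of all genes) and 2 of 10 lower (20.7%). Without embryos 1 and 2 they were 0 and 1 of 10, beside 816 genes higher and 1531 lower of 26116 tested. The median of all genes was -0.52 on the log2 scale in JxB, so differences there sit on a lower middle than in BxJ. For the test of the cross difference, 1 of 10 members was higher in JxB (3.64% of all genes) and 0 of 10 lower (13%).

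Parthenotes of C57BL/6 were compared with the same 2PN BxJ embryos that served for 1PN-P, so these comparisons share their controls. Against 2PN BxJ embryos 3 of 10 members were higher (Asf1a, Chaf1b and Asf1b, with 24.8% of all genes) and 3 of 10 lower (Chaf1a, Hira and Nasp, with 19.6%). For Asf1a the 31 parthenotes ran from 126.6 to 385.04 CPM with a median of 219.97 CPM, all above the 2PN BxJ median and 25 above the highest 2PN BxJ embryo. The log2 fold change of Asf1a was 1.76 ± 0.17 (SE; edgeR, adjusted p = 9.25e-17), beside the higher Mcm9 counts given above. Chaf1a was below the 2PN median in 30 of 31 parthenotes, with a median of 20.8 CPM, and changed by -1.50 ± 0.16 (adjusted p = 1.56e-13). Chaf1b, its partner in CAF-1, moved the other way by 0.86 ± 0.17 (adjusted p = 9.95e-06), with a median of 109.1 CPM and 29 of 31 above the 2PN median.

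Hira had a median of 10.1 CPM in parthenotes, below the 2PN BxJ median in 30 of 31, and changed by -1.23 ± 0.20 (SE; edgeR, adjusted p = 1.12e-07). Nasp fell by 0.70 ± 0.16 on the log2 scale (adjusted p = 9.27e-05), with a median of 604.5 CPM and 29 of 31 below the 2PN median. Asf1b stood at 0.36 ± 0.14 (adjusted p = 0.0341). H1foo and Npm2 did not pass, at -0.07 ± 0.21 (adjusted p = 0.826) and -0.21 ± 0.14 (adjusted p = 0.196), and their medians were 41.9 and 144.8 CPM. In CPM, H1foo was above the 2PN BxJ median in 23 of 31 parthenotes and Npm2 in 14 of 31, so the CPM of H1foo point the other way from its fitted fold change.

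The 1PN-P BxJ embryos were also set directly against the parthenotes. H1foo and Npm2 were higher, 2 of 10 members (1.33% of all genes), and 0 of 10 were lower (0.541%). Npm2 exceeded the parthenote median in 8 of 8 embryos and all 31 parthenotes in 4 of them, a log2 difference of 1.06 ± 0.21 (SE; edgeR, adjusted p = 0.00102), and 0.90 ± 0.23 without embryo 10 (adjusted p = 0.0274). H1foo differed by 1.37 ± 0.33 (adjusted p = 0.0108), above the parthenote median in 7 of 8, and by 0.91 ± 0.35 without embryo 10 (adjusted p = 0.235). Nasp stood at -0.67 ± 0.27 (adjusted p = 0.187) and Asf1a at -0.47 ± 0.29 (adjusted p = 0.466). The way the embryos arose separates these groups. Whether strain does too is not known, as 1PN-P embryos lack a paternal genome and the mother's strain is not stated. Any such strain difference cannot be told apart from the way the embryos arose.

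The reciprocal 2PN embryos also differed. In JxB against BxJ, 1 of 10 members was higher (Asf1a, with 19.1% of all genes) and 2 of 10 were lower (Asf1b and Npm2, with 21.1%). Asf1b had a median of 124.0 CPM in JxB and 257.3 CPM in BxJ, with 21 of 21 JxB embryos below the BxJ median and 5 below its range. Its log2 difference was -1.07 ± 0.17 (SE; edgeR, adjusted p = 1.54e-07). Asf1a had medians of 117.4 CPM in JxB and 53.5 CPM in BxJ, with 16 of 21 above the BxJ median, and differed by 0.95 ± 0.18 (adjusted p = 1.16e-05). The 2 paralogs thus differed in opposite directions between the crosses, and their ratio within an embryo shifted with them. The log2 ratio of Asf1a to Asf1b, on CPM values with nothing added, was -2.29 ± 0.87 (SD, n = 43) in 2PN BxJ, -0.27 ± 1.25 (SD, n = 21) in 2PN JxB and -0.81 ± 0.71 (SD, n = 31) in parthenotes. Npm2 was at -0.43 ± 0.16 (SE, adjusted p = 0.0188), a call lost in 5 of 10 alternatives, among them DESeq2 (-0.30, adjusted p = 0.159) and a mean of at least 10 CPM (-0.24, adjusted p = 0.258). Depth differed too, with median totals of 2522056 counts in JxB and 3867740 in BxJ, and its part was not tested. With libraries under 2000000 counts left out, Asf1a, Nasp and Chaf1b were higher and Asf1b and Npm2 lower.

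**Figure D3:**
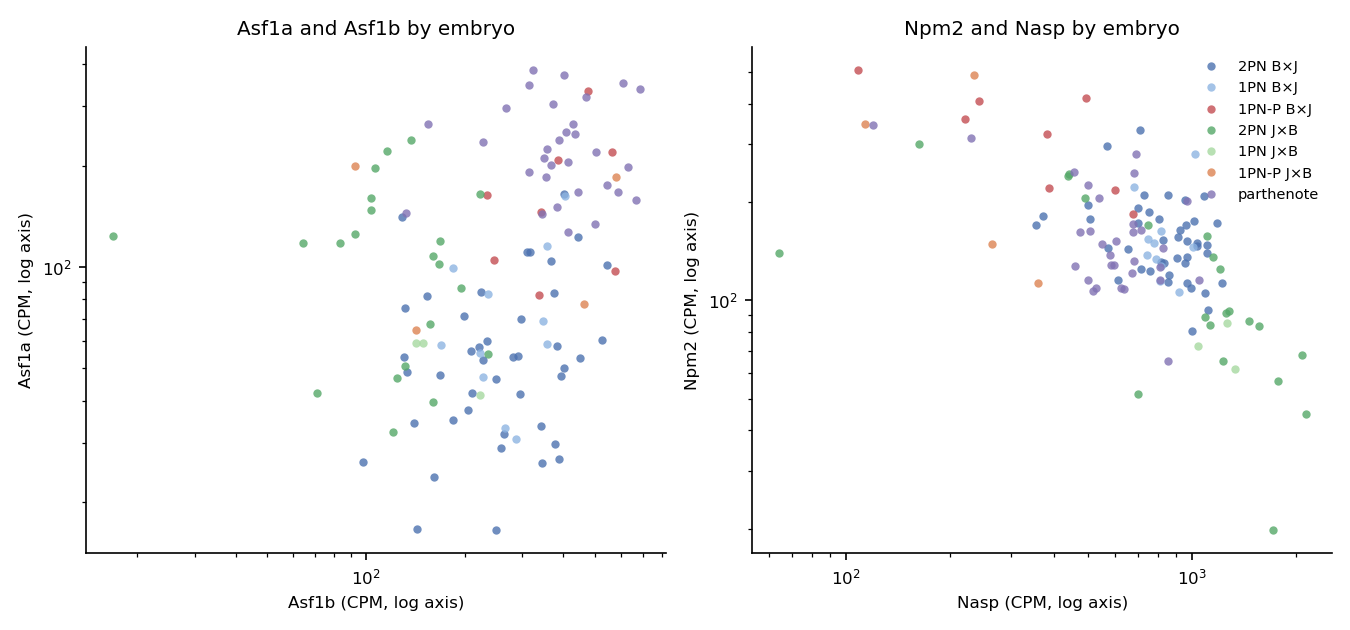
Left, Asf1a against Asf1b, and right, Npm2 against Nasp, in CPM per embryo on log axes, coloured by group as in the key (1PN-P are 1PN embryos called parthenogenetic). Parthenotes sit at high Asf1a, 2PN J×B embryos at low Asf1b, and 1PN-P embryos at low Nasp. Npm2 is high in 1PN-P B×J embryos and in 1PN-P J×B embryos 1 and 2, but not in 1PN-P J×B embryos 3 and 7.

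Within groups, members of the oocyte type and Nasp were related to the summed oocyte markers with opposite signs. These relations, 30 in all (10 members in the 3 groups of at least 21 embryos), were examined after the data were seen, on log2(CPM + 1) values with 2-sided permutation tests of 100000 resamples. In 2PN BxJ embryos H1foo had r = 0.81 and rho = 0.82 (n = 43, permutation test, adjusted p = 0.00015 and 0.0003), and r = 0.81 without the 2 embryos farthest from the marker median. The raw p of 1e-05 is the smallest these resamples can give. In 2PN JxB embryos it had r = 0.68 and rho = 0.75 (n = 21, adjusted p = 0.00199 and 0.00096) and in parthenotes r = 0.63 and rho = 0.57 (n = 31, adjusted p = 0.0011 and 0.00381), with r = 0.57 and 0.47 without the farthest 2.

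Nasp was lower where the same markers were higher. Its r was -0.51 in 2PN BxJ (rho = -0.59; permutation test, adjusted p = 0.00193 and 0.00096), -0.79 in 2PN JxB (rho = -0.77; 0.0003 and 0.00096) and -0.74 in parthenotes (rho = -0.58; 0.00015 and 0.00381). Without the 2 farthest embryos it was -0.44, -0.67 and -0.54. Npm2 had r = 0.45, 0.77 and 0.67 in the same order (rho = 0.39, 0.76 and 0.56; permutation test, adjusted p of r = 0.0089, 0.00045 and 0.00054, and of rho = 0.0299, 0.00096 and 0.00585), and 0.32, 0.82 and 0.50 without the farthest 2. Chaf1b in 2PN JxB passed as well (r = -0.59, rho = -0.56; adjusted p = 0.0144 and 0.0299; -0.46 without the farthest 2), and no other relation did. Medians of the marker sum were 1498 CPM in 2PN BxJ, 3220 CPM in 1PN-P BxJ, 1000 CPM in 2PN JxB, 6664 CPM in 1PN-P JxB and 2413 CPM in parthenotes, so the marker sum was high in the groups with high Npm2 and low Nasp, except that parthenotes had a higher sum than 2PN BxJ without higher H1foo or Npm2 by the test. The part of the marker sum in the group differences was not tested. Single markers did not all follow the sum. From 2PN BxJ to 1PN-P BxJ, medians of Btg4 were 479.3 and 1472 CPM, and of Zp3 164.4 and 95.03 CPM. Of the 11 markers, edgeR called 4 higher and 1 lower there (12.1% and 10.2% of all genes). In parthenotes against 2PN BxJ it called 2 higher and 1 lower (24.8% and 19.6%). CPM values share a library total, which ties them to one another.

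**Figure D4:**
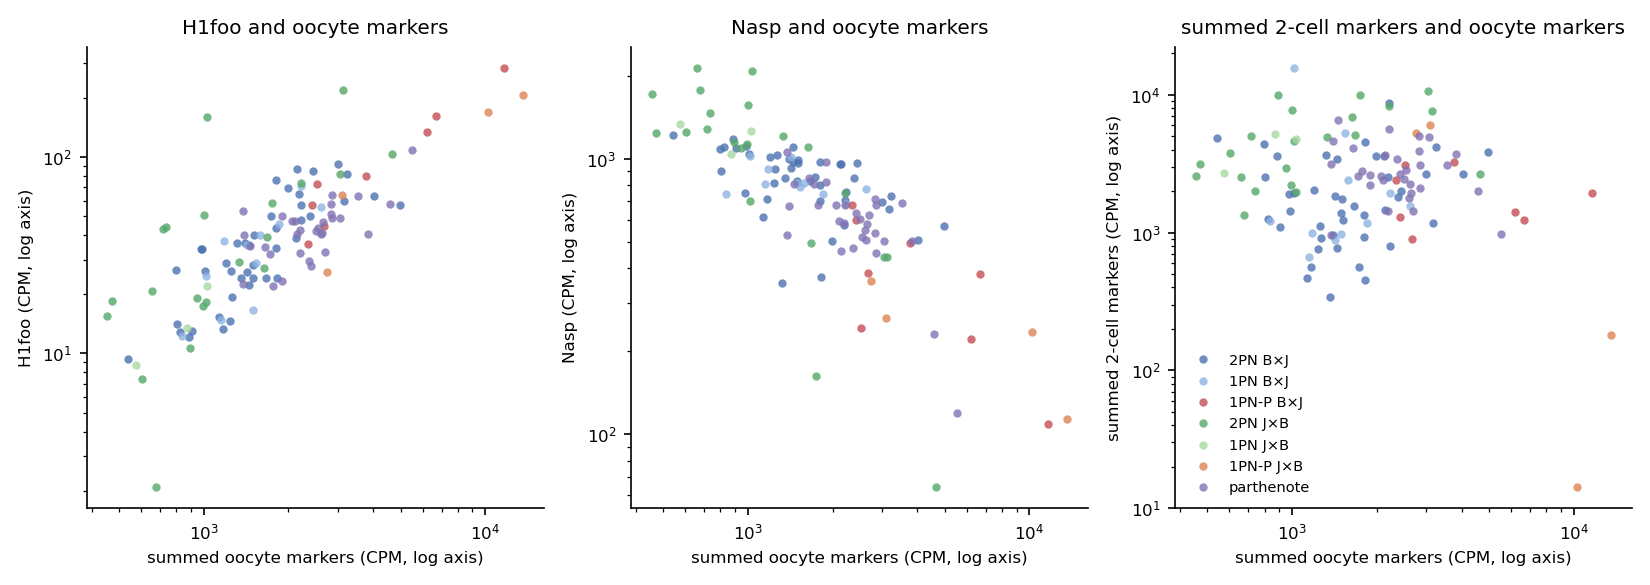
H1foo (left), Nasp (middle) and the summed 2-cell markers (right) against the summed CPM of 11 oocyte markers in each embryo, on log axes, coloured by group as in the key. The 3 rightmost 1PN-P embryos lie at 10240 CPM of oocyte markers or above, and 2 of them, both J×B, have at most 179.7 CPM of 2-cell markers.

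The genes most like a member over all 121 embryos, by Pearson's r on log2(CPM + 1) among 8048 genes, are given as a description with no test. Group, cross, depth and library are shared by these points. For H1foo they were Tcl1 (0.77), Obox5 (0.77), D6Ertd527e (0.75), Oas1d (0.75) and Lmo1 (0.75), and for Npm2 Rdx (0.75), Tcl1b2 (0.75), Wee2 (0.74), Dpysl3 (0.74) and Obox2 (0.74). With group means removed, Tcl1 and H1foo had r = 0.77 and Rdx and Npm2 0.69. For Asf1b they were Tmem232 (0.66), Rfpl4 (0.66), Ago3 (0.65), AI987944 (0.65) and Kctd6 (0.65), but with group means removed these fell to between 0.23 (AI987944) and 0.45 (Kctd6). For Hira they were Lctl (0.65), Srr (0.61), Eif2b4 (0.60), Diexf (0.59) and Polr2k (0.58), with 0.43 for Lctl once group means were removed. H1foo and Npm2 had r = 0.39 in 2PN BxJ, 0.51 in 2PN JxB and 0.51 in parthenotes, and Chaf1a and Chaf1b had r = 0.05, -0.52 and -0.23.

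Other genes of the same machinery were counted in the fit of 1PN-P against 2PN over both crosses. There 18.3% of all genes were higher and 15.8% lower. Of 7 tested linker histones other than H1foo (9 listed), 2 were higher and 0 lower: H1f1 at 1.52 ± 0.34 (SE; edgeR, adjusted p = 0.000275) and H1f0, the linker histone of non-dividing cells, at 0.89 ± 0.29 (adjusted p = 0.0120), with a list median of 0.73. Npm1, the nucleolar nucleophosmin, fell by 0.96 ± 0.19 on the log2 scale (adjusted p = 4.98e-05), opposite to Npm2, while Npm3 stood at 0.46 (adjusted p = 0.591). Of 12 replication partners 0 were higher and 4 lower, with a median of -0.32. These were Ipo4, an importer of H3-H4 (-1.27, adjusted p = 0.00141), Hat1, which acetylates new H4 (-1.09, adjusted p = 0.0117), Rbbp4, the small CAF-1 subunit (-0.69, adjusted p = 0.00610), and Cdan1, an Asf1 binder (-0.62, adjusted p = 0.0401). Of 8 replacement partners 1 was higher, Ppp1r10 (0.96, adjusted p = 0.000693), and 4 were lower, with a median of -0.32. Among the lower were H3f3a (-1.0, adjusted p = 0.000399) and H3f3b (-0.75, adjusted p = 0.00121), which encode H3.3, and the H3K9 methyltransferase gene Setdb1 (-0.67, adjusted p = 0.00853). Without the 3 embryos that stood apart, H1f1 (1.28, adjusted p = 0.0123), Npm1 (-0.81, adjusted p = 0.00304), Ipo4, H3f3a, H3f3b and Setdb1 passed. H1f0 (0.77, adjusted p = 0.0791), Hat1 (-0.91, adjusted p = 0.0963), Rbbp4 (-0.43, adjusted p = 0.146), Cdan1 (-0.35, adjusted p = 0.32) and Ppp1r10 (0.48, adjusted p = 0.178) did not. The replication partners then had 2 of 12 lower and the replacement partners 4 of 8 lower, with 0 higher in either. Of all 24379 genes tested in that fit, 2226 were higher and 2425 lower.

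All 5 genes of Cenpa deposition, which marks centromeres, were lower, with a median of -0.90. Oip5 stood at -1.29 ± 0.32 (SE; edgeR, adjusted p = 0.00104), the chaperone gene Hjurp at -0.90 ± 0.24 (adjusted p = 0.00186), Mis18a at -1.11 ± 0.30 (adjusted p = 0.00261) and Cenpa at -0.78 ± 0.22 (adjusted p = 0.00386). Of 16 H2A-H2B chaperones and related factors 7 were lower and 3 higher, with a median of -0.74. Grwd1 was at -1.88 (adjusted p = 9.94e-06), the nucleolar gene Ncl at -0.98 (adjusted p = 1.41e-05), Set at -1.30 (adjusted p = 0.000105) and Anp32e, which removes H2A.Z, at -0.89 (adjusted p = 0.000137). With those 3 embryos left out, 2 of the 5 Cenpa genes were lower, Hjurp (-1.06, adjusted p = 0.00194) and Oip5 (-0.94, adjusted p = 0.00829), while Mis18a (-0.78, adjusted p = 0.0560) and Cenpa (-0.47, adjusted p = 0.113) did not pass, and 7 of 16 H2A-H2B factors were lower with 0 higher. Among all genes 15.8% were called lower with all embryos, and 2425 of 24379 without those 3. The lists were chosen with earlier results known, so nothing is read from these counts about the lists as such. Npm1, H3f3a, H3f3b and Set have processed copies elsewhere in the genome, and their values are uncertain where reads were split.

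In parthenotes against 2PN BxJ the same lists moved as follows, beside 24.8% of all genes higher and 19.6% lower. Of the linker histones 2 were higher and 2 lower, Npm1 fell by 1.11 (adjusted p = 5.69e-13), 5 of 12 replication partners and 7 of 8 replacement partners were lower with 0 higher, as were 13 of 16 H2A-H2B factors and 3 of 5 Cenpa genes, beside 19.6% of all genes lower (edgeR). H1f1 pointed the other way from the 1PN-P comparison, at -0.78 (adjusted p = 0.0187). In 1PN against 2PN over both crosses 0 genes of these 6 lists were called, beside 0.263% of all genes.

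**Figure D5:**
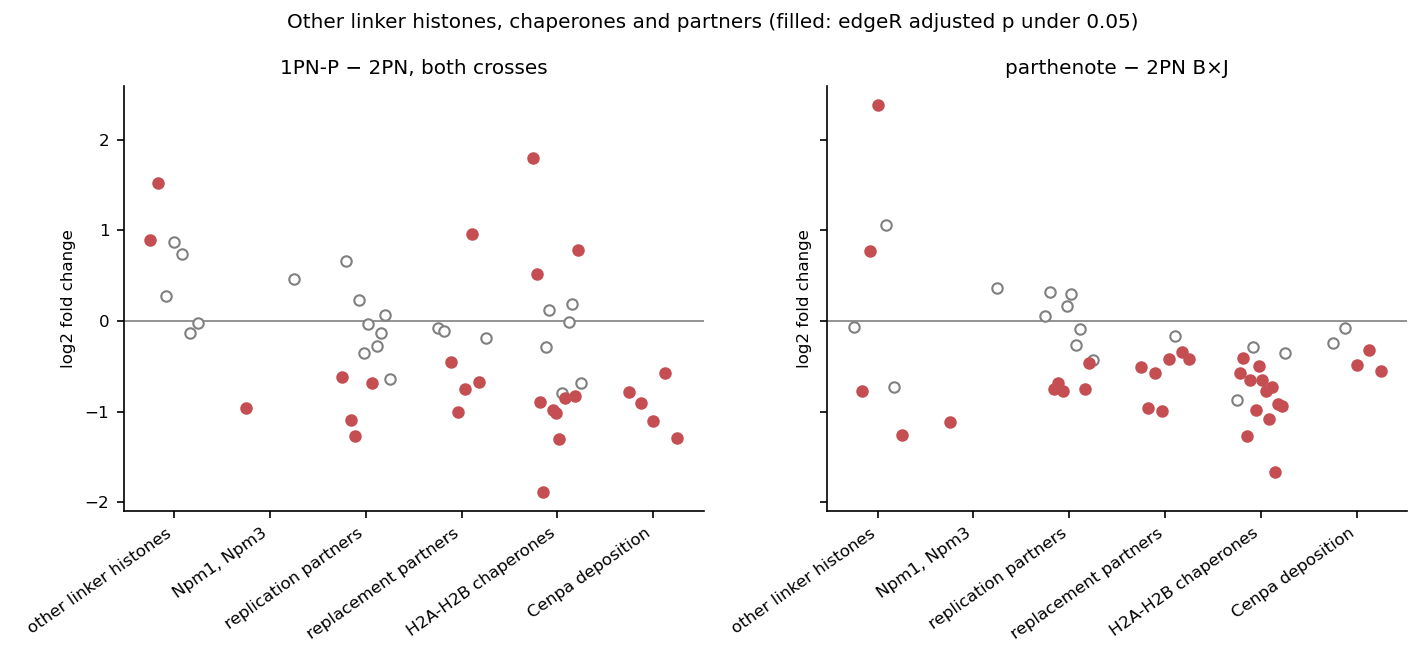
Log2 fold change of each tested gene of 6 lists of linker histones, chaperones and partners (points; filled where the edgeR adjusted p was under 0.05), for 1PN-P against 2PN embryos over both crosses (left) and parthenotes against 2PN B×J embryos (right). All 5 Cenpa deposition genes lie below 0 in the left panel, and 13 of 16 H2A-H2B factors are filled below 0 in the right panel.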

How the data were processed

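RNA of 125 single embryos was sequenced after SMART-Seq v4 and Nextera XT preparation, per the labels' protocols. Per the submitters' processing notes, HISAT2 2.0.5, featureCounts 2.0.0 and the build GRCm38 were used. The authors deposited 1 table of estimated counts by gene without scaling, and 28.4% of its values above 0 were not whole. Neither annotation release nor strand setting nor a rule for shared reads is stated in the labels. Symbols matched 43266 of 43421 identifiers. Left out were 1 library labelled dead and 3 of low quality.

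Counts were rounded to whole numbers and tested with edgeR 4.0.16 in R 4.3.3 (quasi-likelihood F test with its default deviances, TMM factors, filterByExpr by group, Benjamini-Hochberg adjustment over all genes tested, threshold 0.05). Type and cross were additive terms in the fit over both crosses (6 hybrid groups), and other comparisons used the means of all 7 groups, so groups of 3 and 4 borrow the spread of larger ones. CPM were taken over the sum of all gene counts of a library. No 2 libraries of a group agreed within sampling noise (lowest chi-square per gene 15.01). Depth limits low genes such as Daxx most. Alternatives were DESeq2 1.42.0, limma 3.58.1 voom, RLE factors, other filters, left-out libraries, a replicate block and edgeR's bias-adjusted deviances. Figures and tables used Python 3.11.15 with numpy 2.4.6, pandas 2.3.3 and matplotlib 3.10.9. The test was checked on simulated data. Embryo numbers were taken as names only, and whether same-numbered embryos share a source was not tested. Coordinates and the 250 upstream bases come from RefSeq tables of GRCm38.p6, in which 9 of 10 members had a promoter window. The planned comparison of protein sequences was not run.

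Named were the 10 members, up to 4 called genes with the smallest p in 1PN-P against 2PN over both crosses from each list of partners, and the 5 genes most correlated with H1foo, Npm2, Asf1b and Hira among those with a mean of at least 10 CPM, without pseudogenes and unnamed gene models. The members and lists were chosen with earlier results of these data known.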

Additional observations from a re-analysis of the deposited data

Results flagged for a closer look

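The change of Chaf1a in 1PN-P against 2PN embryos differed between the crosses, by 1.20 ± 0.43 on the log2 scale (JxB minus BxJ; SE; edgeR, adjusted p = 0.0432), with 8 of 8 BxJ embryos below and 3 of 4 JxB embryos above the 2PN median of their cross. Without JxB embryos 1 and 2, which stood apart, it was 0.78 ± 0.54 (adjusted p = 0.451). With 1 of the 4 JxB embryos left out at a time it was 1.20 without embryo 1 (adjusted p = 0.0895), 0.90 without embryo 2 (adjusted p = 0.210), 1.46 without embryo 3 (adjusted p = 0.0145) and 1.16 without embryo 7 (adjusted p = 0.0756). The call was also lost with no filter on low counts, with only the groups compared, with a replicate block and with first-listed libraries only. No member's highest or lowest embryo lay far enough from the next one to be marked by Dixon's test in the 20 pairs of member and group with 4 to 10 embryos, where chance marks about 1 in 20. That test sees only the gap to the next embryo, so it can miss 2 that lie together, as JxB embryos 1 and 2 did. It thus does not show that no embryo stood apart.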

How the results depend on the processing

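Of the members' called differences recomputed under the alternatives, 414 kept direction and call, 35 kept direction only, and 1 reversed: Asf1b in 1PN-P against 2PN JxB, at -0.23 without embryos 1 and 2. Where a cause is not given, the cause was not tested.

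Counts of members called are given where they moved by more than 1.5 times. The genes called in the same direction, of all genes tested, follow in brackets, except where single embryos were left out in turn. Those totals moved too, so the counts are not read as results about the members. Within that, a further 33 of 298 recomputed counts differed by 1 member. With DESeq2, 1 was lower in 1PN against 2PN JxB (677 of 24380 genes) and 1 in 2PN JxB against BxJ (4510). It also gave 1 lower in the cross difference of the 1PN-P effect (3311). With limma voom, 4 were lower in 1PN-P against 2PN JxB (5132 of 24380) and 3 in the cross difference (3280). RLE factors left 1 lower between 2PN crosses (4994 of 24380). A mean of at least 10 CPM gave 2 higher and 1 lower there (2400 and 2117 of 9438). No filter gave 0 higher for the cross difference (1075 of 42234). Fitting only the groups compared gave 0 higher in 1PN-P against 2PN JxB (777 of 15558). It gave 1 lower between 2PN crosses (3052 of 14392) and 0 higher for the cross difference (553 of 21240). Without libraries under 2000000 counts, 4 were lower in 1PN-P against 2PN JxB (5847 of 25140) and 3 higher between 2PN crosses (3650). In that setting 2 were higher and 2 lower for the cross difference (1162 and 4933). Of the 1PN-P JxB embryos only 1 and 2 remain in that setting. With first-listed libraries only, 1 was lower in 1PN-P against 2PN BxJ (1674 of 23437) and 1 between 2PN crosses (4497). For the cross difference 0 were then higher and 2 lower (643 and 2770). Bias-adjusted deviances, added after seeing the data, gave 1 lower for the cross difference (2875 of 24380). Without 1PN-P BxJ embryo 10, 1 was higher against parthenotes (124 of 24337) and 2 were lower for the cross difference (3513). Without the 3 embryos that stood apart, 2 were higher in 1PN-P against 2PN (2226 of 24379) and 1 lower against 1PN (1851) over both crosses. Without JxB embryos 1 and 2, 0 were higher and 1 lower in JxB (816 and 1531 of 26116), and 0 higher for the cross difference (508). Leaving out single 1PN-P JxB embryos gave 0 to 3 higher in JxB, with 0 and 1 without embryos 1 and 2, and 0 to 1 higher and 0 to 2 lower for the cross difference.

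A replicate block on the embryo numbers gave 1 higher and 1 lower in 1PN-P against 2PN BxJ (811 and 1196 of 24380 genes). It gave 0 higher against parthenotes (17 genes), and 0 higher and 1 lower for the cross difference (343 and 1629 genes). Those numbers were taken as names of samples. Of same-numbered pairs, 2 of 11, 3 of 8, 1 of 3, 0 of 4 and 6 of 31 had deviations correlated over 0.1, the highest at 0.366. Pairs with unlike numbers were not computed, so a pairing was not tested.

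Over all genes, calls in 1PN against 2PN over both crosses were 60 here, 8 with DESeq2, 0 with limma voom, 23 with bias-adjusted deviances, 779 with no filter and 4 without 1PN BxJ embryo 9. Those in 1PN-P BxJ against parthenotes were 457 here, 1214 with bias-adjusted deviances and 147 without embryo 10. RLE factors moved the median of all genes from 0.19 to 0.36 in 1PN-P against 2PN over both crosses and from -0.52 to -0.24 in JxB. With them, genes higher and lower went from 2958 and 2497 to 4599 and 2009 in BxJ, from 2686 and 5052 to 3547 and 4176 in JxB, and from 6037 and 4778 to 7822 and 3822 in parthenotes against 2PN BxJ. Groups of 3 and 4 embryos and 7 shallow 2PN JxB libraries limit the JxB comparisons.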

Other observations

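The 4 libraries left out of the comparisons gave these member levels. The 1PN BxJ embryo labelled dead, with 3547812 counts, had 14.4 CPM of Nasp, 0.564 CPM of Hira and 4.51 CPM of Chaf1b, all below the lowest kept 1PN BxJ embryo, beside 64.3 CPM of H1foo, 221.5 CPM of Npm2 and 171.2 CPM of Asf1a. Of the 2 1PN BxJ libraries of low quality, embryo 6 had 144.4 CPM of H1foo, 359.9 CPM of Npm2, 139.2 CPM of Nasp and 2.18 CPM of Hira, and embryo 8 had 46.3, 74.3, 432.2 and 10.5 CPM of the same genes. The 2PN JxB library of low quality held 4803 counts, too few for member levels.

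Among 2PN JxB embryos, Nasp was lowest in embryo 8, at 64.1 CPM, where the oocyte markers summed to 4650 CPM and Chaf1a stood at 196.8 CPM, the highest of its group. Embryo 18 of that group, with 962591 counts, had the group's highest Hira (77.4 CPM), Ubn1 (385.9 CPM) and Daxx (58.2 CPM) and its lowest H1foo (2.08 CPM). These embryos were picked out after their values were seen.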
